A study of Bos taurus and Sus scrofa with 6 samples.

Results

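The contractile genes of peritubular cells were followed through the cell classes of prepubertal cattle and pig testis. The set was 8 gene symbols, ACTA2, MYH11, TAGLN, CNN1, ACTG2, TPM2, PDLIM3 and MYL9, which were looked up in the gene table of each species. The cattle table of 19994 genes listed all 8, with 2 identifiers for MYL9 (9 rows in total), and the pig table of 22694 genes listed 6, since MYH11 and ACTG2 were not among its symbols. The animals were untreated, 3 Holstein bulls of 4.5 months and 3 pigs of mixed breed of 3 months, and their dissociated testis cells were sequenced by a droplet method as 1 library each. Barcodes mark the droplet of a cell, and a unique molecular identifier (UMI) marks the RNA molecule that was captured. The study used males before puberty so that transcripts of haploid germ cells would not dominate the data.

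The peritubular myoid cells form a flat layer around each seminiferous tubule, outside the basement membrane. They resemble smooth muscle, and their slow contractions move fluid and sperm along the tubule. In smooth muscle, actin filaments carry tropomyosin and slide against myosin after the myosin light chain has been phosphorylated, and calponin and transgelin bind the actin filament. The genes of this machinery are textbook targets of serum response factor, which binds the CArG box, a motif of 10 bases. Smooth muscle and pericytes of blood vessels (mural cells) use the same genes, so that these genes alone do not tell a myoid cell from a mural cell.

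Pig promoters are shown because the members were high together in the same cells, as described below. The windows are the 300 bases before the annotated gene start in RefSeq on Sscrofa11.1, and they were read for 7 of the genes, MYH11 and ACTG2 included. The pattern of a CArG box, CC and GG around bases that are A or T, matches a box on either strand. It was searched without mismatch. Of the 7 windows that of MYL9 held 1 box, and the other windows held none, against 312 of 19559 windows of protein-coding genes (1.60%). The box of MYL9 began 70 bases before the gene start. The window of ACTA2 held no box without mismatch and is shown for comparison. Boxes with a mismatch were not looked for, so that a window without an exact box may still hold a near one. The windows shown were chr17:39787865-39788164 on the + strand and chr14:100886733-100887032 on the - strand. They are printed 5′ to 3′ along the gene, with the box in capitals.
MYL9: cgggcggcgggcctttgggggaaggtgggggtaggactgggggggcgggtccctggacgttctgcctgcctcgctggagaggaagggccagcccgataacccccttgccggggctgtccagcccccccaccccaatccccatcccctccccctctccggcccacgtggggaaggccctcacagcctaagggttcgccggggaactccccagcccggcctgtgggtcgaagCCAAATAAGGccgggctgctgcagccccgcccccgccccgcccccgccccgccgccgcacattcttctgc
ACTA2: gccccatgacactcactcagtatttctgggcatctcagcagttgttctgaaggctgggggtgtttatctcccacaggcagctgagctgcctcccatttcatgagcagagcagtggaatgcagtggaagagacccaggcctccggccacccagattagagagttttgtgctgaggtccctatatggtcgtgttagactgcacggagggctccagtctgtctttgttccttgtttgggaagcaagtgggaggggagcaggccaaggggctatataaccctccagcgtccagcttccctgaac

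The libraries held 5805223 to 53325608 UMIs, and the cells kept numbered 3444, 8138 and 5900 for the cattle and 3162, 3808 and 2236 for the pigs, in the order of the animals. The median depth per cell ran from 789 UMIs in cattle 1 to 5870 in pig 3, and any pair of libraries shared 9 to 61 cell barcodes. Cells were clustered within each species with the 8 contractile genes left out, and clusters were named from other marker genes. Myoid markers such as DES (desmin), LMOD1 (leiomodin) and MYLK (the kinase of the myosin light chain) did not score highest in any cluster. Clusters with this character scored highest for stromal markers such as DCN and COL1A1, and pig cluster 6, with 8 of 11 myoid markers counted, had 5 stromal markers among its 10 leading genes. They are therefore called myoid-marked here, a name for stromal-like clusters in which at least 3 myoid markers stood at least 2-fold above the stromal-like cluster with the lowest myoid score. Genes that vary with the contractile genes still took part in the clustering, so that the classes are not independent of them. The myoid-marked class was also set after the levels of the contractile genes had been seen. The calls below against other and stromal-like cells therefore describe the size and spread of the differences, and are no independent test that the genes mark these cells. Cattle had 1295, 2396 and 1896 myoid-marked cells, in 4 clusters that each drew 94.8% to 99.1% of their cells from 1 animal. Pig had 286 in pig 2 and 101 in pig 3, all of cluster 6, and none in pig 1. The minimum for a cell was 2444 UMIs in pig 2 and 3458 UMIs in pig 3. With a minimum of 500 UMIs per barcode, the myoid-marked clusters of pig held 1883, 1407 and 114 cells. The cluster of 1883 cells, 98.6% of pig 3, had a median depth of 2258 UMIs. That of 1407 cells, 98.7% of pig 2, had 1794 UMIs. The main call thus left out most of these cells, and the main pig results rest on deeper ones.

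In cattle, all 8 contractile genes were far higher in myoid-marked cells than in the rest of the testis. Within an animal the folds ran from 3.96 for CNN1 in cattle 1 to 27.7 for ACTG2 in cattle 3, apart from the second identifier of MYL9 with folds of 1.5 to 1.75. Counts were summed per animal over the myoid-marked cells and over all other cells, and levels are given in CPM, the UMIs of a gene per 1000000 UMIs of the sum. All 9 identifiers were called higher, compared with 10.0% of the 14200 genes tested (edgeR quasi-likelihood test, adjusted p under 0.05 after Benjamini-Hochberg adjustment, 3 sums against 3). Over the 9 identifiers the log2 fold change had a median of 4.60, and over all genes tested one of -0.11.

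ACTA2, the smooth muscle alpha-actin, had 5365, 5056 and 7202 CPM in the myoid-marked cells of cattle 1, 2 and 3 and 301, 240 and 262 CPM in the other cells. The levels did not overlap, and the log2 fold change was 4.79 (SE 0.26, edgeR adjusted p = 0.000159). Stromal-like cells came next at 497 to 1450 CPM, and in the other 6 classes the level lay between 65.8 and 574 CPM, with overlapping animals. ACTG2, the gamma-actin of visceral smooth muscle, had 667, 444 and 866 CPM in myoid-marked cells and 34.0, 24.4 and 31.3 CPM in the others. Its log2 fold change was 4.79 as well (SE 0.31, edgeR adjusted p = 0.000334), and no other named class exceeded 121 CPM in any animal, a value reached by the macrophage-like cells of cattle 1. Both actins were thus separated between the groups in every animal.

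MYH11, the smooth muscle myosin heavy chain, had 90.6, 212 and 197 CPM in myoid-marked cells and 7.56, 8.87 and 7.84 CPM in other cells, a log2 fold change of 4.71 (SE 0.39, edgeR adjusted p = 0.000482). Cattle 1 was lowest among the myoid-marked cells but still stood well above every level in other cells. The endothelial-like cells, 27 to 64 per animal, followed with 0 to 53.5 CPM, and stromal-like cells with 12 to 21.8 CPM, and these neighbours overlapped. MYL9 encodes the regulatory light chain of smooth muscle myosin, the substrate of the kinase that starts contraction. Its first identifier, ENSBTAG00000011473, had 1406, 918 and 1388 CPM in myoid-marked cells and 203, 107 and 99.4 CPM in the others (log2 fold change 3.51, SE 0.35, edgeR adjusted p = 0.000791). Stromal-like cells with 211 to 567 CPM and Leydig-like cells with 239 to 348 CPM overlapped in second place, and germ-like cells were lowest at 18.3 to 37.6 CPM.

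The second identifier of MYL9, ENSBTAG00000016024, behaved differently. It had 571, 591 and 494 CPM in myoid-marked cells and 382, 338 and 290 CPM in the others, which did not overlap (log2 fold change 1.04, SE 0.21, edgeR adjusted p = 0.0101). Endothelial-like cells with 646 to 1070 CPM were above myoid-marked cells in all 3 animals, lymphocyte-like cells with 582 to 971 CPM overlapped with them, and stromal-like cells with 363 to 687 CPM did too. Leydig-like and Sertoli-like cells had 202 to 302 CPM. Whether both identifiers belong to true MYL9 loci or share reads was not tested, so that the symbol is given by identifier within cattle. Both identifiers were summed in the comparison of the species.

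Among the proteins of the thin filament, TPM2 (beta-tropomyosin) had 1733, 1371 and 2196 CPM in myoid-marked cells and 86.5, 90.3 and 96.4 CPM in the others, with a log2 fold change of 4.60 (SE 0.26, edgeR adjusted p = 0.000159). Germ-like cells kept 137 to 174 CPM of TPM2, just under the 178 to 382 CPM of stromal-like cells and above the 18.9 to 69.8 CPM of Sertoli-like, Leydig-like, macrophage-like and lymphocyte-like cells in every animal. CNN1, calponin, which damps the activity of actin-bound myosin, had 184, 169 and 341 CPM against 46.6, 17.7 and 27.6 CPM (log2 fold change 3.28, SE 0.43, edgeR adjusted p = 0.00177). Here Leydig-like cells had 59.5 to 75.1 CPM and germ-like cells 37.6 to 52.5 CPM, both overlapped by the 18.8 to 76.3 CPM of stromal-like cells, whereas lymphocyte-like cells had 0 to 8.27 CPM. TAGLN, transgelin, an actin-bundling protein, had 1829, 1630 and 2176 CPM against 79.4, 83.6 and 85.3 CPM and the highest fitted difference, a log2 fold change of 4.83 (SE 0.23, edgeR adjusted p = 0.000159). Stromal-like cells with 190 to 251 CPM and endothelial-like cells with 130 to 163 CPM followed without overlap. PDLIM3, a PDZ and LIM domain protein of the actin cytoskeleton, had 2833, 2104 and 3429 CPM against 173, 240 and 276 CPM (log2 fold change 3.93, SE 0.29, edgeR adjusted p = 0.000362). Stromal-like cells had 989 to 1395 CPM of PDLIM3, and in no other named class did an animal exceed 361 CPM.

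Free RNA also held these genes. In cattle barcodes with at most 50 UMIs, which hold no called cell, CNN1 had 93.6, 42.6 and 86.7 CPM, TPM2 had 259, 231 and 571 CPM and TAGLN had 292, 294 and 461 CPM in cattle 1, 2 and 3. The CNN1 values bracket those of Leydig-like cells, and the TPM2 values lie above those of germ-like cells. Stromal-like cells lay below these levels of CNN1 and TAGLN in every animal, with 251, 190 and 227 CPM of TAGLN. For TPM2 they lay below in cattle 2 and 3 (195 and 178 CPM) and above in cattle 1 (382 CPM). The part of free RNA in these levels was not tested.

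**Figure D1:**
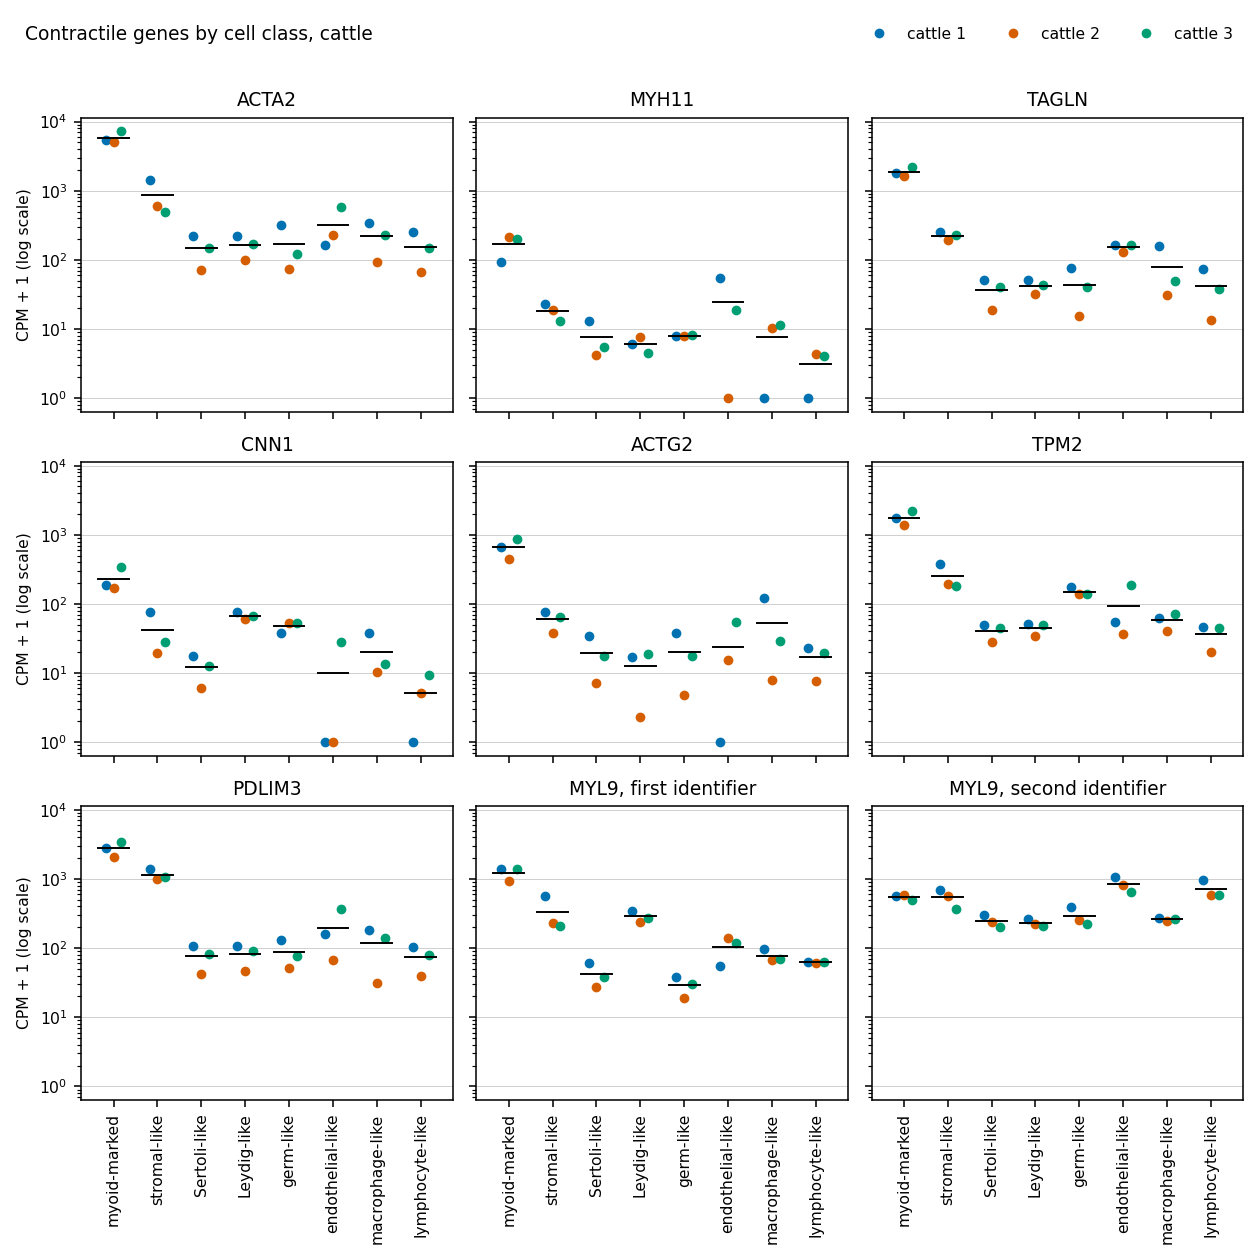
Each panel plots 1 gene in cattle, with CPM + 1 on a log scale on the y axis and cell classes on the x axis. Points are the 3 animals and black bars their means. In 8 of 9 panels the myoid-marked cells stand highest, and in the panel of the second MYL9 identifier the endothelial-like and lymphocyte-like cells do.

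In pig the 6 listed genes were also highest in myoid-marked cells, which came from pig 2 and pig 3 alone. Of the 6 genes, 5 were called higher than in all other cells, compared with 1.72% of the 15217 genes tested (edgeR, 2 sums against 3). Their median log2 fold change (6 genes) was 3.97, and that of all genes tested was -0.29. Without pig 1, which had other cells but no myoid-marked cells, 3 of 6 were called, with 174 calls over all 15009 genes tested. Without pig 2 it was 0 of 6 and 0 of 14485 genes, when 1 myoid-marked sum was left and its spread was assumed to be that of the other sums. Leaving out pig 3 also left 1 myoid-marked sum under the same assumption, so that its calls are not used here. All 6 were called once the replicate block for the animal was added, with 1996 calls over all 15217 genes tested.

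ACTA2 had 5006 and 4434 CPM in the myoid-marked cells of pig 2 and 3 and 34.7, 139 and 153 CPM in the other cells of pig 1, 2 and 3. The difference was 5.39 on the log2 scale (SE 0.59, edgeR adjusted p = 0.00529). MYL9 had 379 and 236 CPM against 56.2, 55.6 and 34.6 CPM (log2 fold change 2.58, SE 0.36, edgeR adjusted p = 0.0122). Leydig-like cells had 131 to 219 CPM of MYL9, which overlapped with the 155 and 173 CPM of stromal-like cells, and endothelial-like cells were below the latter at 132 and 137 CPM. TPM2 had 1785 and 1143 CPM against 53.9, 187 and 60.8 CPM (log2 fold change 3.81, SE 0.56, edgeR adjusted p = 0.0152). CNN1 had 120 and 59.1 CPM against 2.98, 8.05 and 2.41 CPM (log2 fold change 4.25, SE 0.59, edgeR adjusted p = 0.0118). TAGLN had 1790 and 1164 CPM against 46.4, 145 and 51.4 CPM (log2 fold change 4.13, SE 0.53, edgeR adjusted p = 0.00899). For these 5 genes no animal overlapped between the groups. How many of all genes tested were separated in this way was not counted, so that the lack of overlap only describes these genes.

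PDLIM3 had 239 and 232 CPM in myoid-marked cells of pig 2 and 3 and 22.3, 61.7 and 11.3 CPM in the other cells. The groups did not overlap, but the gene missed the threshold with a log2 fold change of 2.83 (SE 0.62, edgeR adjusted p = 0.0737). It was called with a replicate block for the animal (3.07 on the log2 scale), by DESeq2 (2.86), without a filter on low counts (2.82) and with a minimum of 500 UMIs per barcode (2.80), under which pig 1 also had a myoid-marked sum.

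In pig the Sertoli-like cells, the nurse cells inside the tubule, ranked next after the stromal-like cells for TAGLN, TPM2, PDLIM3 and CNN1. TAGLN had 122, 165 and 164 CPM there and TPM2 had 95.8, 215 and 163 CPM, whereas ACTA2 had 8.29, 48.8 and 38.8 CPM. In pig 1, TAGLN had 122 CPM in Sertoli-like, 10.3 CPM in germ-like and 17.8 CPM in Leydig-like cells. Pig 1 had no myoid-marked cell at the main cell call, but 113 of its cells in unnamed cluster 18 had 866 CPM of ACTA2 and 305 CPM of TAGLN. Free RNA was not measured in pig, and its part in the levels of Sertoli-like cells was not tested. The Sertoli-like cells of cattle had 17.6 to 50.1 CPM of TAGLN and 27.3 to 48.6 CPM of TPM2, the lowest or next to lowest mean levels of the 8 classes. These levels were not tested between the species.

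**Figure D2:**
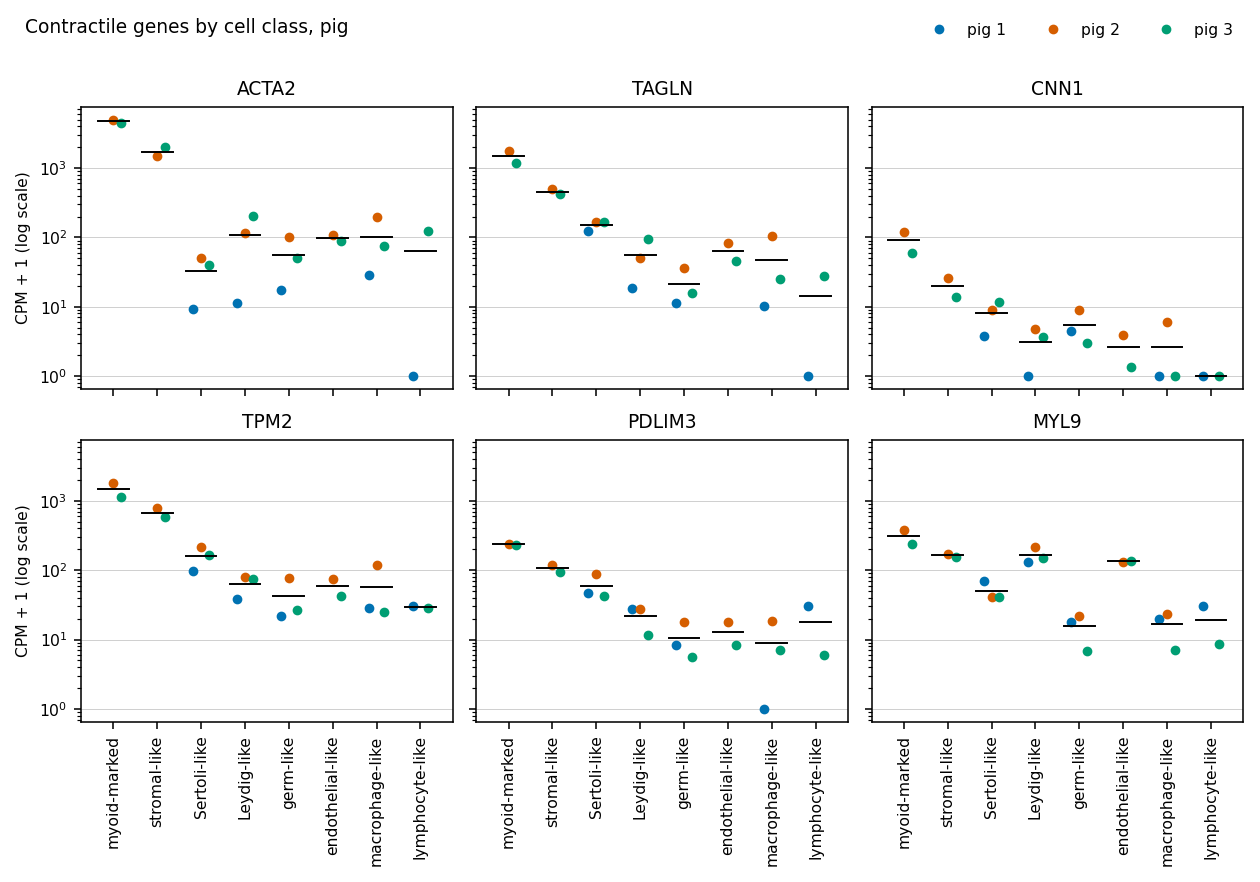
Each panel plots 1 of the 6 genes listed in pig, with CPM + 1 on a log scale on the y axis and cell classes on the x axis, for classes with at least 20 cells in an animal. Points are animals and black bars their means. The 2 points of the myoid-marked cells stand above every other class in each panel, and the Sertoli-like cells of all 3 animals are raised for TAGLN and TPM2.

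Against the stromal-like cells, the class most like them, the myoid-marked cells of cattle were higher for 8 of 9 identifiers, compared with 0.887% of the 11498 genes tested (edgeR, 3 sums against 3). The median over the identifiers was 3.15 on the log2 scale, and over all genes tested it was 0.02. The stromal-like sums held 88, 1314 and 1009 cells in cattle 1, 2 and 3. Of these, 40, 131 and 56 were of cluster 16, a cluster led by division genes, so that the make-up of the class differed between the animals. ACTA2 had 1450, 608 and 497 CPM in the stromal-like cells of cattle 1, 2 and 3, which was 3.70, 8.32 and 14.5 times lower than in the myoid-marked cells of the same animal, and its log2 fold change was 3.12 (SE 0.36, edgeR adjusted p = 0.00182). ACTG2 (3.79, SE 0.36), MYH11 (3.66, SE 0.42), TAGLN (3.33, SE 0.26), CNN1 (3.23, SE 0.44) and TPM2 (3.15, SE 0.31) changed by like amounts on the log2 scale, with edgeR adjusted p from 0.0005 to 0.00353. The first identifier of MYL9 differed by 2.25 on the log2 scale (SE 0.35, edgeR adjusted p = 0.00725). PDLIM3 differed least among the genes called, at 1.54 on the log2 scale (SE 0.25, edgeR adjusted p = 0.0106), with folds of 2.03, 2.13 and 3.19 in cattle 1, 2 and 3. Without cattle 2 or without cattle 3, PDLIM3 was no longer called. The second identifier of MYL9 had a log2 fold change of 0.32 (SE 0.26, edgeR adjusted p = 0.857), and it was lower in the myoid-marked cells of cattle 1 (571 against 687 CPM) and higher in those of cattle 3 (494 against 363 CPM).

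In pig the same comparison rested on 2 sums against 2. All 6 genes had higher levels in the myoid-marked cells of both animals, but 0 of 6 passed the threshold, as did 0.00% of the 10306 genes tested with edgeR. At an unadjusted p under 0.05 it was 6 of 6 members and 598 of all genes. DESeq2 called 2 of 6 members and 47 of all genes, the fit with no filter on low counts 5 of 6 and 287, and the fit with a replicate block for the animal 6 of 6 and 585. ACTA2 had 1470 and 1993 CPM in the stromal-like cells of pig 2 and 3, 3.41 and 2.22 times lower than in myoid-marked cells (log2 fold change 1.46, SE 0.24, edgeR adjusted p = 0.213). CNN1 stood farthest apart, with 24.7 and 12.8 CPM in stromal-like cells and a log2 fold change of 2.36 (SE 0.50, edgeR adjusted p = 0.348). The log2 fold changes of TAGLN (1.71, SE 0.27), PDLIM3 (1.19, SE 0.26), TPM2 (1.13, SE 0.28) and MYL9 (0.93, SE 0.29) had edgeR adjusted p from 0.203 to 0.632.

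**Figure D3:**
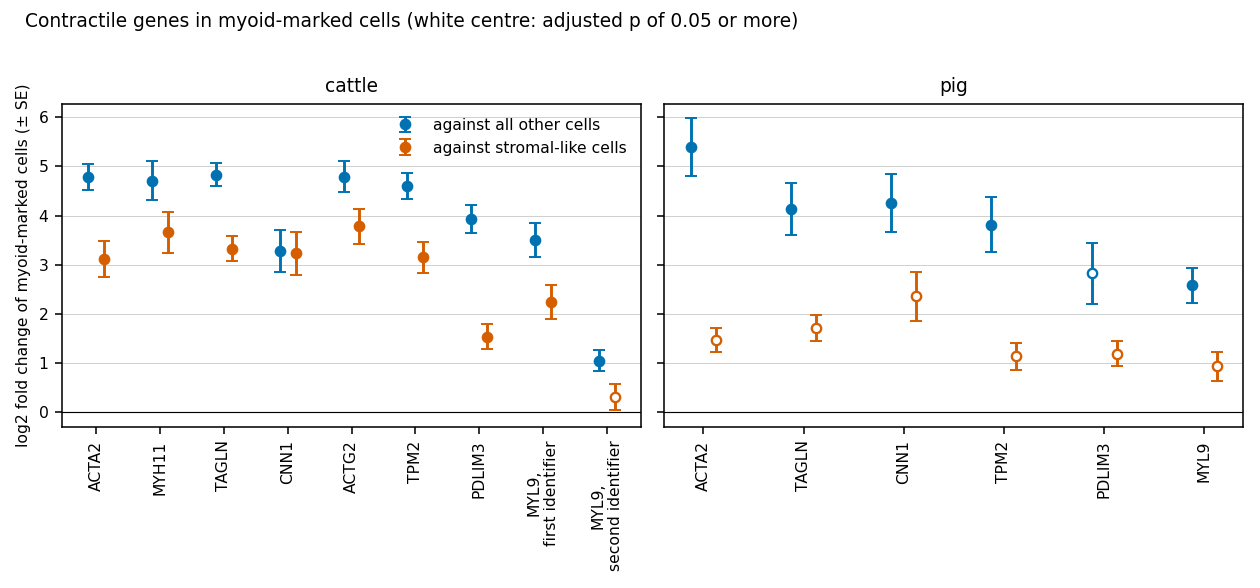
Log2 fold change of myoid-marked cells against all other cells (blue) and against stromal-like cells (orange) on the y axis, for each gene on the x axis, with bars of 1 SE from the edgeR fit. In cattle all points but that of the second MYL9 identifier against stromal-like cells (0.32) are filled, that is, called, and in pig the points against stromal-like cells are all open.

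The stromal-like cells were themselves mixed. The level of ACTA2 in cattle cluster 5, 95.1% of cattle 2, was 353 CPM over its cells, and in cluster 8, 97.9% of cattle 3, it was 229 CPM. Cluster 16, 227 cells led by division genes such as UBE2C and TOP2A, had 1660, 1730 and 2457 CPM of ACTA2 in cattle 1, 2 and 3, above the stromal-like cells as a whole in each animal. Its TAGLN levels of 192, 166 and 209 CPM were below those of the stromal-like cells as a whole (251, 190 and 227 CPM). PDLIM3 was at 1008 and 1014 CPM in clusters 5 and 8 and at 1034 to 1463 CPM in cluster 16. In cattle 3, the myoid-marked cells fell into cluster 6 with 8916 CPM of ACTA2, 2659 CPM of TAGLN and 238 CPM of MYH11, and cluster 10 with 3760, 1205 and 117 CPM of the same genes. All 3 were thus more than 2-fold higher in cluster 6 than in cluster 10 of the same animal, and PDLIM3 differed less, at 3799 and 2698 CPM.

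In pig, cluster 25 was led by RGS5, a marker of mural cells, and the division gene TOP2A was also among its 10 leading genes. It held 85 cells, had 3251 and 3155 CPM of ACTA2 in pig 2 and 3, and 8 of 9 mural markers counted for it. Its TAGLN level was 810 and 405 CPM, below the 1790 and 1164 CPM of myoid-marked cells in the same animals. Cluster 15, the other stromal-like cluster, had 712 and 1088 CPM of ACTA2 and 364 and 426 CPM of TAGLN. With cluster 25 left out of the stromal-like cells, a choice made after seeing the data, 1 of 6 genes was called in pig. Over all 9973 genes tested there, 5 were called higher and 20 lower. With cluster 16 left out in cattle the count was 8 of 9 as before, and over all 11393 genes 157 were called higher and 62 lower. In the myoid-marked clusters, 1 to 3 of the mural markers counted, of 10 listed in cattle and 9 in pig. Summed over the list, the mural markers had 158 to 331 CPM in myoid-marked, 204 to 413 CPM in stromal-like and 34.0 to 95.3 CPM in all other cells of cattle, with 8 to 10 of 10 detected in the myoid-marked sums. In pig the sum was 141 and 332 CPM in myoid-marked, 2126 and 993 CPM in stromal-like and 23.2 to 74.8 CPM in all other cells. The part of mural cells in the levels of the contractile genes was not tested. In cattle, unnamed cluster 20, 125 cells with markers of macrophages and of stromal cells at once, had 4579 CPM of ACTA2, and pig unnamed cluster 26, 45 cells with endothelial and stromal markers, had 3153 CPM. Leaving all unnamed clusters out of the other cells, again a choice made after seeing the data, changed no count of members called. Over all genes, 3456 of 14180 were then called in cattle, 260 of 15180 in pig and 141 of 12824 in the comparison of the species below.

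**Figure D4:**
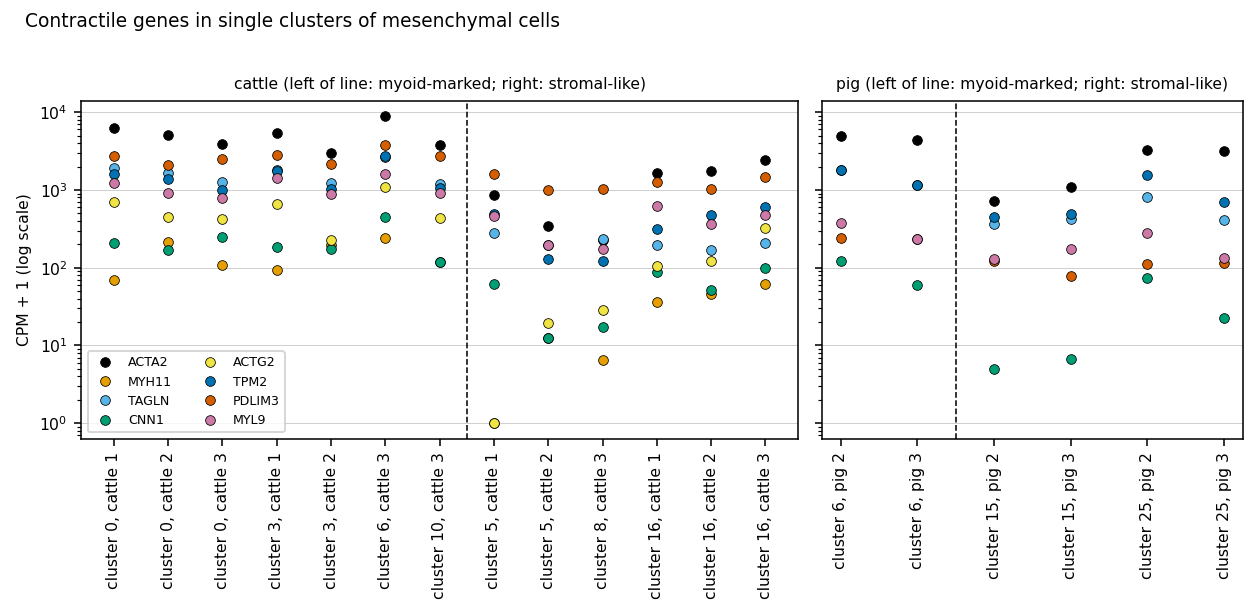
Levels of the contractile genes in single clusters of stromal-like and myoid-marked cells, with CPM + 1 on a log scale on the y axis and the cluster and animal on the x axis, for clusters with at least 20 cells in the animal. Points are genes, with MYL9 in cattle by its first identifier. ACTA2 in cattle cluster 16 and pig cluster 25, right of the dashed lines, stands at 1660 to 3251 CPM, between the other stromal-like and the myoid-marked clusters.

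Between the species, the difference of the log2 fold changes against other cells was tested as an interaction for the 6 shared symbols, with both MYL9 identifiers of cattle summed. No member passed the threshold (0 of 6 with edgeR, compared with 0.981% of the 12839 genes tested), 0 of 6 had an unadjusted p under 0.05, and DESeq2 called 0 of 6. The fold change was lower in pig than in cattle by 0.85 for TAGLN (SE 0.57), by 0.95 for TPM2 (SE 0.62) and by 1.26 for PDLIM3 (SE 0.70) on the log2 scale. It was higher in pig by 0.45 for ACTA2 (SE 0.61), by 0.83 for CNN1 (SE 0.74) and by 0.23 for MYL9 (SE 0.43), and the edgeR adjusted p of the 6 genes lay between 0.407 and 0.904. A replicate block for the animal gave 3 calls of 6, TAGLN (-0.97), TPM2 (-1.05) and PDLIM3 (-1.07), and 2324 calls over all genes, of which 1576 were lower in pig, with a median difference of -0.32 over all genes. The sign for ACTA2 turned with a minimum of 500 UMIs per barcode (-0.37). For MYL9 it turned under the same minimum (-0.015), without pig 2 (-0.094) and with the first cattle identifier alone (-1.02), and the last of these was added after seeing the data. Species, age, breed and gene annotation differed together and cannot be told apart.

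The genes also occurred together in single cells. Cells were thinned to 500 UMIs each, which left out 157 myoid-marked cells of cattle 1, and the second MYL9 identifier was not counted. At least 1 contractile gene had a UMI in 92.0%, 95.2% and 96.3% of the myoid-marked cells of cattle 1, 2 and 3 (94.5% ± 2.2, SD, n = 3) and in 96.5% and 91.1% of those of pig 2 and 3. Lymphocyte-like cells, which should lack these genes, had 24.0%, 8.69% and 18.2% in cattle and 3.64% in pig 3, at median depths before thinning of 567, 1305, 3553 and 6202 UMIs against 685, 1722, 4989 and 4061 UMIs in the myoid-marked cells of the same animals. At least 3 genes had a UMI in 63.9%, 62.8% and 75.5% of myoid-marked cells in cattle and in 45.8% and 26.7% in pig. The same held for 22.8%, 6.39% and 4.46% of stromal-like cells in cattle and 11.8% and 7.35% in pig 2 and 3. Exact binomial intervals at 95%, for counting error alone, ran from 39.9% to 51.8% for the myoid-marked cells of pig 2 and from 18.4% to 36.5% for those of pig 3. In Sertoli-like cells it was 0 of 482, 0 of 2369 and 0 of 1328 cells in cattle, which at this thinned depth allows shares of up to 0.622%, 0.127% and 0.226%. Without thinning, at least 3 genes were found in 66.5%, 93.7% and 97.9% of myoid-marked and in 2.38%, 1.65% and 29.7% of Sertoli-like cells of cattle, so that the share rose with depth in both classes. Since 8 genes could be found in cattle and 6 in pig, the shares were not compared between the species.

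By gene, after thinning, ACTA2 had a UMI in 72.1%, 79.3% and 82.9% of myoid-marked cells in cattle and 84.6% and 78.2% in pig. PDLIM3 was found in 71.1%, 61.2% and 77.3% of these cells in cattle and in 11.5% and 16.8% in pig. TAGLN was found in 49.6%, 50.5% and 57.3% in cattle and in 57.3% and 41.6% in pig, and CNN1 in 8.61%, 7.72% and 14.6% in cattle and in 6.64% and 2.97% in pig. MYH11, in cattle, was found in 4.75%, 9.81% and 9.18%. Most myoid-marked cells thus showed ACTA2 at this depth and few showed the calponin or the myosin heavy chain.

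**Figure D5:**
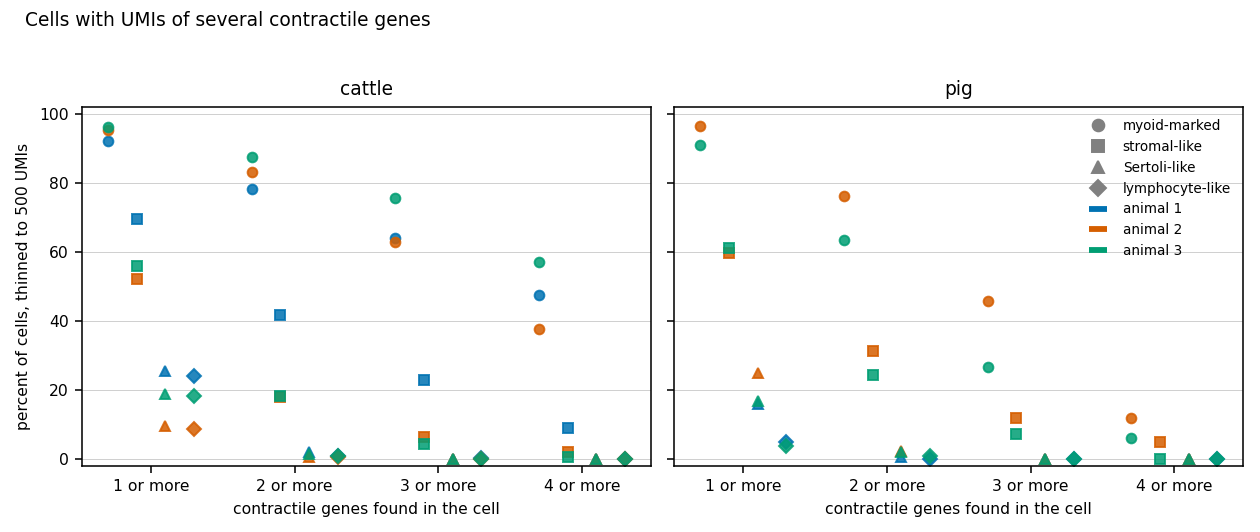
Percent of cells, thinned to 500 UMIs, in which at least 1, 2, 3 or 4 contractile genes had a UMI, for 4 cell classes (symbols) and each animal (colours), for animals with at least 20 cells of the class. The myoid-marked cells stand above the stromal-like cells at every step, and Sertoli-like and lymphocyte-like cells are near 0 from 3 genes on.

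Other genes of the contractile system were followed as lists. Over all genes tested against other cells, 10.0% were called higher and 13.7% lower in cattle and 1.72% higher in pig, the background for the counts of each list. Of 12 tested paralogues of the actin, myosin and tropomyosin members, 4 rose and 2 fell in myoid-marked against other cells of cattle, with a median log2 fold change of 0.74. TPM4 (2.86, SE 0.30), MYH10 (2.82, SE 0.26) and MYL6 (1.90, SE 0.23) were higher, and the light chain MYL6B was lower (-2.69, SE 0.24). In pig 0 of 10 such paralogues were called, with TPM4 at 2.41 on the log2 scale (SE 0.48, edgeR adjusted p = 0.0535). Of 21 relatives of calponin, transgelin and PDLIM3 and other actin-binding proteins, 10 rose and 1 fell in cattle (median 1.27), and 6 of 18 rose in pig (median 1.58). CSRP1, a LIM protein of smooth muscle, differed by 2.97 (SE 0.35) in cattle and 3.65 (SE 0.46) in pig, ACTN1, an actin crosslinker, by 2.88 (SE 0.29) and 2.90 (SE 0.38), CALD1, caldesmon, by 2.61 (SE 0.23) and 3.17 (SE 0.33), and FLNA, filamin A, by 2.07 (SE 0.28) and 2.93 (SE 0.37), all on the log2 scale. The gene that fell in cattle was TAGLN3, a neuronal relative of transgelin, with 0, 0.23 and 0.62 CPM in myoid-marked and 5.46, 5.97 and 5.10 CPM in other cells (-3.29 on the log2 scale, SE 0.57).

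Of 14 tested genes of contraction signalling, 4 rose in cattle (median 1.11) and 2 in pig (median 0.71), and PPP1R14A, an inhibitor of myosin phosphatase, was among them in both, with 2.97 (SE 0.28) and 4.15 (SE 0.37) on the log2 scale. Of 14 receptors for contractile agonists, 6 had the counts to be tested in cattle, where 2 rose, and 9 in pig, where 3 rose. EDNRA, an endothelin receptor, rose by 2.63 (SE 0.62) in cattle and 3.84 (SE 0.40) in pig on the log2 scale, and AGTR1, an angiotensin receptor, by 2.83 (SE 0.46) and 3.79 (SE 0.46). EDNRB was called higher in pig (3.22, SE 0.47) with 73.3 and 31.8 CPM in myoid-marked cells, and the myoid-marked cells of cattle held 1 UMI of it in all 3 animals. Of transcription factors of the smooth muscle programme, 2 of 10 rose in cattle and 1 of 8 in pig. FHL2, a LIM cofactor of serum response factor, had 316, 346 and 345 CPM in myoid-marked cells of cattle against 30.2, 31.2 and 33.6 CPM in other cells (3.74 on the log2 scale, SE 0.21). In the myoid-marked cells of pig 0 UMIs of FHL2 were counted, which allows up to 2.85 CPM in pig 2 and 6.82 CPM in pig 3. NR2F2, a nuclear receptor, rose by 2.46 (SE 0.34) in cattle and 2.63 (SE 0.36) in pig.

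Against stromal-like cells in cattle, where 0.887% of all genes tested were called higher, 5 genes of these lists were called higher, MYL6 (1.40, SE 0.25), FLNA (1.99, SE 0.30), DSTN (1.85, SE 0.32), PDLIM7 (1.38, SE 0.27) and FHL2 (1.97, SE 0.26), of 55 tested in the 5 lists. In pig 0 of 49 were called, as was none of all genes tested with edgeR. In cattle, PPP1R14A (0.56, SE 0.27), EDNRA (-0.07, SE 0.43), AGTR1 (0.43, SE 0.40) and CALD1 (0.38, SE 0.25) did not pass the threshold against stromal-like cells.

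By likeness to the mean standardized profile of the members, Pearson correlation was taken over the sums of all classes and animals on log2(CPM + 10), which share libraries and depth and are given as a description. In cattle, over 26 sums and 6370 genes, FOXS1, a forkhead factor of pericytes and smooth muscle, came first (r = 0.94), with 578 to 608 CPM in myoid-marked cells and 194 to 240 CPM in stromal-like cells. MYL7, the light chain of atrial myosin, followed (r = 0.92) with 34.5 to 82.3 CPM against 2.68 to 10.9 CPM in stromal-like cells, and then P4HA3, SULF2, EFEMP2, MRVI1, LUM and IFITM5 (r from 0.91 to 0.92). In pig, over 23 sums and 5475 genes, CYP26B1, an enzyme that degrades retinoic acid, came first (r = 0.96) with 831.7 and 930.6 CPM in myoid-marked and 165 and 254 CPM in stromal-like cells. In cattle CYP26B1 had 0, 0.93 and 1.14 CPM in myoid-marked cells. GFPT2, DES, LGI1, MFAP4, COL16A1, COL4A4 and DPT came next in pig (r from 0.93 to 0.94), and DES had been used to mark the cells. LUM in cattle and DPT in pig were among the stromal markers that named the clusters. Among the members themselves r with this profile lay between 0.76 for CNN1 and 0.99 for ACTA2 in cattle, apart from 0.40 for the second MYL9 identifier, and between 0.78 for MYL9 and 0.98 for TPM2 in pig.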

How the data were processed

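Testis libraries of 3 cattle and 3 pigs were analysed, each counted as 1 animal, although 2 libraries of each species carry the same testis number in the labels. The authors deposited raw UMI counts per gene and barcode, without normalization, made with Cell Ranger (2.1.0 per the submitters' processing notes, with another version in the pig file headers) on ARS-UCD1.2 and Sscrofa11.1. In their own analysis the authors left out poor cells and doublets by limits not given in the sources used here, the mouse library the study took from elsewhere was not used, and the cattle genome at hand was of another build, so that cattle sequences are not shown. The promoter window of 1 member is not reported here.

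Barcodes were called cells at the 99th percentile of the 3000 largest UMI totals divided by 10, with at least 200 genes, and the highest Scrublet doublet scores (0.8% per 1000 cells) were left out. Cells of each species were clustered in scanpy 1.11.5 (2000 variable genes without the members, 30 components, 15 neighbours, Leiden resolution 1). Clusters were named by the class with the largest mean log2 fold of its markers, with at least 3 counted, each 2-fold or more over the median cluster and seen in at least 5% of cells. The myoid-marked class replaced a planned myoid-like class, which no cluster met, and clusters with markers of 2 classes stayed unnamed. Both steps were set after the clusters and the members' levels had been seen. The members and gene lists were chosen with earlier results of these data known.

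UMI counts were summed per animal and class, with at least 10 cells, and both sums of an animal share a donor and are paired by design. Genes that reached 10 counts over the sums entered edgeR 4.0.16 under R 4.3.3 (TMM normalization, quasi-likelihood test, two-sided, Benjamini-Hochberg adjusted p under 0.05), with the animals of a species fitted without a block and the block as an alternative. The SE was taken from the fold change and the F statistic. DESeq2 1.42.0, library size alone, no filter on low counts, other cell calls, other clustering and leaving out each animal were the other alternatives. The tests were tried on simulated counts without an effect of the animal, with 100 genes changed 4-fold and 100 changed 16-fold. Against other cells, 67 and 98 were recovered in cattle, with 19 false calls, and 23 and 88 in pig, with 7. Against stromal-like cells, 84 and 100 were recovered in cattle, with 25 false calls, and 57 and 99 in pig, with 11. In pig most 4-fold changes against other cells were thus missed. P-values measure the spread between the sums of these libraries, and the main fits take both sums of an animal as unpaired. Named genes were all members, the genes with the largest log2 fold change among those called in each list (up to 4) and the 8 genes most like the members, and list genes of other comparisons were named beside these for comparison. PPP1R12B was chosen after its values were seen, as the list gene that differed between the species.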

Additional observations from a re-analysis of the deposited data

Results flagged for a closer look

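In cattle, barcodes with at most 50 UMIs, which entered no comparison, held ACTA2 at 782, 808 and 1646 CPM in cattle 1, 2 and 3. These levels stand above those of lymphocyte-like cells, which had 65.8 to 251 CPM in the same animals, and below those of the myoid-marked cells. Stromal-like cells had 1450, 608 and 497 CPM, above the level of these barcodes in cattle 1 and below it in cattle 2 and 3. The pig tables hold no barcodes below 500 UMIs, so that the same level could not be taken there.

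PPP1R12B, a subunit of myosin phosphatase, differed between the species, with a log2 fold change of myoid-marked against other cells that was higher in pig than in cattle by 4.46 (SE 0.91, edgeR adjusted p = 0.0406). In pig it had 45.7 and 54.5 CPM in the myoid-marked cells of pig 2 and 3 and 2.98, 3.66 and 6.46 CPM in the other cells. In cattle it had 0, 0.47 and 0.10 CPM in myoid-marked and 0.42, 0.73 and 0.64 CPM in other cells, that is, 3 UMIs in all myoid-marked cells together. No other gene of the 5 lists was called in this comparison, of 61 tested. Over all 12839 genes tested 0.981% were called, so that 1 of 61 is near that share. PPP1R12B was not followed under the alternatives. Without cattle 2 or without cattle 3, 2 of all genes were called in this comparison, against 126 in the main fit. Gene annotation differed with the species, and its part in the cattle levels was not tested. No group had 4 or more animals, so that single animals were not examined for standing apart from their group.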

How the results depend on the processing

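In cattle the count of members called against other cells lay between 8 and 9 of 9 and against stromal-like cells between 7 and 8 of 9 when 1 animal was left out, and the other alternatives gave 9 and 8. Against other cells without cattle 2 or without cattle 3, the second MYL9 identifier was the call lost. In pig against other cells, 3 of 6 were called without pig 1, with 174 of all 15009 genes tested. Without pig 2 or without pig 3, 1 myoid-marked sum was left, and these fits are not counted here. DESeq2, no filter on low counts, a minimum of 500 UMIs and the replicate block gave 6. Over all genes they called 859, 462, 1708 and 1996, in this order, against 297 in the main fit. Against stromal-like cells in pig, 0 of 6 became 2 with DESeq2, 5 with no filter on low counts, 6 with a replicate block for the animal and 1 with the RGS5 cluster left out. No value could be had there without pig 2 or pig 3, since no residual degrees of freedom were left. The species difference went from 0 to 3 of 6 with the replicate block. It stayed at 0 without cattle 1, 2 or 3 and without pig 1. Over all genes, the 126 calls then became 42, 2, 2 and 115. With so few calls, 0 of 6 without cattle 2 or cattle 3 says little about the members. Leaving out pig 2 or pig 3 left 1 myoid-marked sum of pig, and calls are not counted there. The share of pig myoid-marked cells with at least 1 member was 93.8% thinned and 100% without thinning. Reversed were, for the species difference, ACTA2 with a minimum of 500 UMIs (-0.37), and MYL9 without pig 2 (-0.094, the lowest value with 1 animal left out, the highest being 0.68 without cattle 3), with that minimum (-0.015) and with the first cattle identifier alone (-1.02). The cause was not tested. Of 444 values of single members under alternatives, 408 kept their direction and side of the threshold, 11 lost and 21 gained a call, and 4 turned.

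With the replicate block, the pairing of the sums by animal changed no member call in cattle (9 of 9 and 8 of 9) and made 6 of 6 calls against other cells in pig. Over all genes, calls went from 3367 to 7523 and from 218 to 1753 in cattle, from 297 to 1996 and from 0 to 585 in pig, and from 126 to 2324 between the species. Without cattle 1, 2 or 3, cattle calls against other cells were 4954, 378 and 552, and against stromal-like cells 386, 76 and 74. DESeq2 called 859 genes against other cells in pig and 491 between the species, and a minimum of 500 UMIs per barcode called 1708 and 362. Library size alone moved the median log2 fold change of all genes from -0.11 to -0.45 in cattle and from -0.31 to 0.19 between the species. Calls that were higher then made up 23.2% instead of 42.2% against other cells in cattle, 34.8% instead of 46.8% against stromal-like cells, and 89.2% instead of 47.6% between the species, and no count of members called changed.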
